A study of Mus musculus with 2 samples.

Results

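Integrins are receptors made of 1 alpha and 1 beta chain, and the 10 subunit genes described here are those whose products mouse embryonic stem cells may use to hold on to matrix. They were chosen by gene name: Itga3, Itga5, Itga6, Itga7, Itga9, Itgav, Itgb1, Itgb3, Itgb4 and Itgb5. All 10 were measured, by 26 of the 20380 probe sets that the platform annotation assigns to 1 gene, in a table of 12393 such genes. Both samples came from E14tg2a, an embryonic stem cell line of the mouse. Clone 4, called the shDAB2 clone here, was stably transfected with a plasmid for a short hairpin RNA against Dab2, named shDAB2-285 in the labels. The vector clone (clone 9) carried the control plasmid. Both grew in GMEM, with fetal bovine serum at 10% and LIF at 1000 U/ml, the cytokine that keeps these cells undifferentiated, and 10 µg of RNA of each was labelled for 1 Affymetrix array. Each group is thus 1 clone on 1 array, so the hairpin, the clone and the culture cannot be told apart as sources of a difference.

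The alpha chain largely sets the ligand. Alpha-3, alpha-6 and alpha-7 bind laminins of the basement membrane, and alpha-6 can pair with beta-4, the integrin chain of hemidesmosomes. Alpha-5 binds fibronectin and alpha-v binds vitronectin and fibronectin, both through an RGD sequence in the ligand; beta-3 and beta-5 are partners of alpha-v. Beta-1 pairs with alpha chains of both kinds, while alpha-9 binds other ligands such as tenascin-C. Dab2, an adaptor protein of clathrin-mediated endocytosis, is known to bind the tails of beta integrins and to take integrins up from the cell surface. The arrays measured RNA, not surface protein.

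Every value below is a log2 expression value made by RMA, which corrects background, normalizes the arrays to 1 distribution and joins the probes of a probe set into 1 value. Differences are shDAB2 minus vector, so a negative one means less RNA in the shDAB2 clone. A probe set was taken as above the floor if it reached 6.62, the median signal of both arrays, in at least 1 clone. Single arrays leave nothing to test across samples, and no p-values are printed. What can be repeated is the reading of a gene by its separate probe sets: in the 2502 genes with at least a pair above the floor, the SD of 1 probe set's difference was 0.11, and that of the gap between a pair was 0.15. This spread covers probe noise and transcript variants, not cultures or clones. Levels of different probe sets are not compared, because probes differ in how strongly they bind.

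The RNA for both major laminin-binding alpha chains was lower in the shDAB2 clone on every probe set. The fibronectin and vitronectin alpha chains were lower by less, and the beta chains differed little or in the other direction. Of the 26 probe sets 15, from 7 genes, were above the floor. Of these 15, 11 were lower and 4 higher in the shDAB2 clone, with a median difference of -0.16. Over all 10932 probe sets above the floor the median was -0.002 and 50.2% were lower. At least 1.5-fold lower were 2 of the 15 (background 1.53%), the probe sets 1455158_at of Itga3 and 1422444_at of Itga6, and 0 were 1.5-fold higher (background 0.494%). Past a smaller limit, a log2 difference of 0.32, 6 of the 15 were lower (background 6.17%) and 1 higher (background 4.38%). Probe sets of 1 gene are not independent of each other, and 1 of the 15, 1423268_at of Itga5, passed the floor only through the vector clone. With no floor, 17 of all 26 were lower and 9 higher, with a median of -0.04, against 46.7% lower among all 20380.

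**Figure D1:**
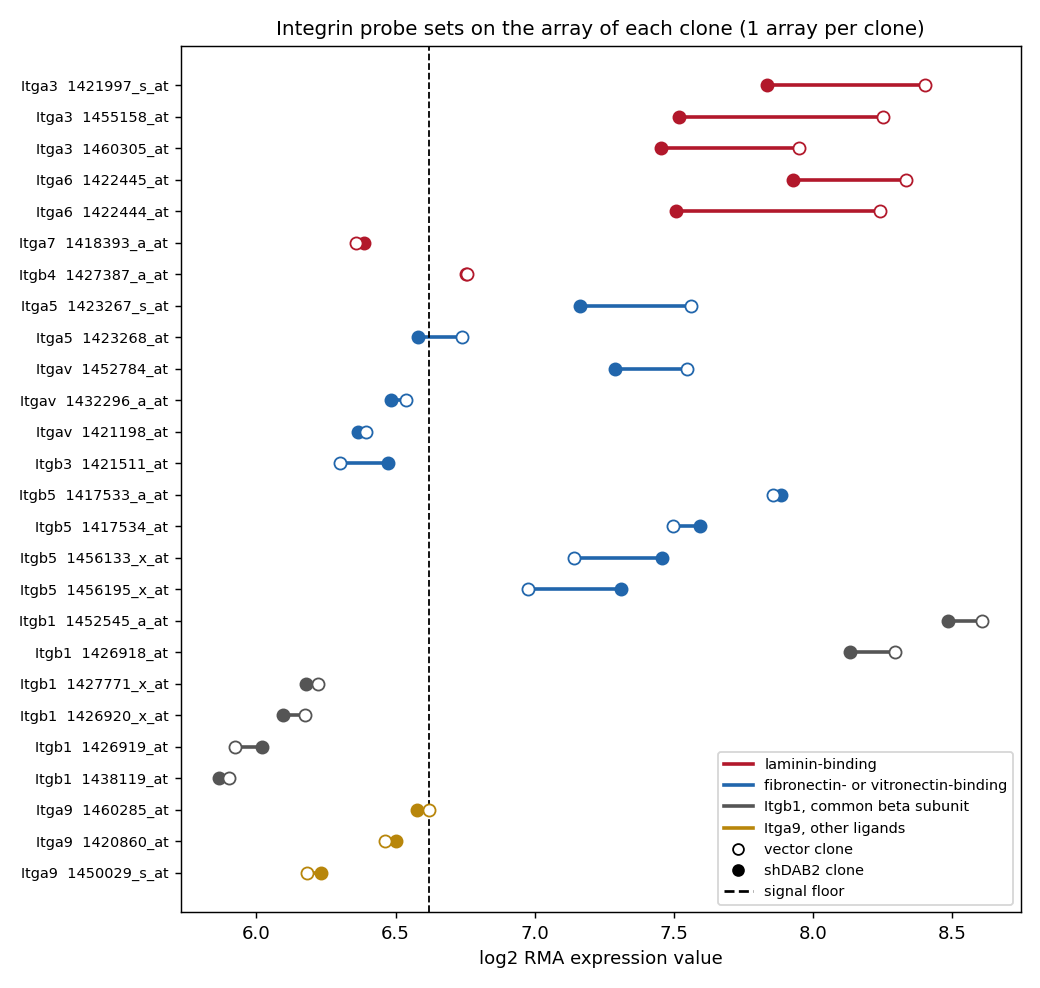
Log2 RMA value of each of the 26 integrin probe sets in the vector clone (open circles) and the shDAB2 clone (filled circles), coloured by ligand class, with the floor of 6.62 as a dashed line. The 5 probe sets of Itga3 and Itga6 read lower in the shDAB2 clone, and those of Itgb5 read higher; 11 probe sets lie below the floor on both arrays.

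Stretches of genomic sequence before the RefSeq starts of 3 subunits are shown first, since these genes stand for the patterns that follow: Itga3 (laminin-binding, lower), Itga5 (fibronectin-binding, lower by less) and Itgb5 (vitronectin-binding, higher). Each is the 250 bases upstream of a start in RefSeq's table for mouse GRCm38.p6, 5′ to 3′ on the gene's strand, and capitals mark GGGCGG or its reverse complement CCGCCC, the GC box letters that Sp and Krüppel-like factors are known to bind. Itga3 lies at chr11:95076715-95076964 on the minus strand, Itga5 at chr15:103366792-103367041 on the minus strand, and Itgb5 at chr16:33829415-33829664 on the plus strand. Itga3 has 2 listed starts, and the more upstream one is shown.
Itga3: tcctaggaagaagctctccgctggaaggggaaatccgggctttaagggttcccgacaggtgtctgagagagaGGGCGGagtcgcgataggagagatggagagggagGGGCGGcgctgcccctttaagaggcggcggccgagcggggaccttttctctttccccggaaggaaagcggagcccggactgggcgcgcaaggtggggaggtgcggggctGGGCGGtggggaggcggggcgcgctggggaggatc
Itga5: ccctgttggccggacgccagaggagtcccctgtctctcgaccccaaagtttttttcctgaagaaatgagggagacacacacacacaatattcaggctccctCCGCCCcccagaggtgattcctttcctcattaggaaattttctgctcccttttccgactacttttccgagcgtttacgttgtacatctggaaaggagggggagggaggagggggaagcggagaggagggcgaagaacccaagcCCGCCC
Itgb5: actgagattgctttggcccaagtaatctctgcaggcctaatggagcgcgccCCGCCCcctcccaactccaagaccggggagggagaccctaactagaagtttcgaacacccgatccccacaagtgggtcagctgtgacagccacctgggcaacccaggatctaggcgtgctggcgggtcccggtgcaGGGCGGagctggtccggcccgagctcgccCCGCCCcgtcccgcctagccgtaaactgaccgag
The GC box letters occurred 3 times in the Itga3 window, 2 times in that of Itga5 and 3 times in that of Itgb5. Windows were matched for 6 of the 10 genes, 7 windows in all; besides these the genes are Itgb1, Itgav and Itga9. The window of Itgb1 held 1 match, the second Itga3 window 1, and those of Itgav and Itga9 0. Of all 32851 windows of that length 32.7% held at least 1 match, 16.7% at least 2 and 8.47% at least 3. The Itga3 window shown and the Itgb5 window had the same number of matches, and a link between matches and expression was not tested. The 7 windows held between 50.8% and 68% G and C, against a median of 52.4% over all windows. Of other motifs searched on both strands, GGAATG (the TEAD core) occurred in 1 of the 7 windows, that of Itgb1, against 12.6% of all. TGANTCA (AP-1) and the CArG box occurred in 0 of the 7, against 6.75% and 1.47% of all. Matches of different motifs were counted separately even where they could overlap. A match is a run of letters and not a measured site.

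Itga3, the alpha-3 laminin receptor chain of many epithelia, was lower on all 3 of its probe sets. The first, 1421997_s_at, read 7.84 in shDAB2 cells and 8.40 in vector cells, a difference of -0.57 or 1.48-fold lower. The next, 1455158_at, read 7.52 and 8.25, a difference of -0.73 or 1.66-fold lower. The third, 1460305_at, read 7.45 and 7.95, a difference of -0.50 or 1.41-fold lower. The vector clone was the higher sample each time. The platform annotation gives the first and the third probe set the same source transcript sequence. The differences spanned 0.23, and each was over 4 times the SD of 0.11 for 1 probe set, which does not cover clones or cultures. Across all probe sets of similar signal the SD of the difference was larger, 0.27 for the first and next probe set and 0.23 for the third. Of all probe sets above the floor 0.686%, 1.66% and 2.27% were as low as -0.73, -0.57 and -0.50.

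Itga6, whose product pairs with beta-1 or beta-4 to bind laminin, was likewise lower on both of its probe sets. Probe set 1422445_at read 7.93 in shDAB2 cells and 8.33 in vector cells, a difference of -0.40 or 1.32-fold lower. Probe set 1422444_at read 7.51 and 8.24, a difference of -0.73 or 1.66-fold lower. Both put the vector clone higher, but they differed from each other by 0.33, more than the 0.15 usual for a pair, so the size is less certain than the direction. The platform annotation gives both the same source transcript sequence. With the mean of its probe sets Itga6 stood at -0.57 and Itga3 at -0.60.

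The other laminin-binding members were dim and differed by little. Itga7, the alpha-7 chain best known from muscle, read 6.39 in shDAB2 cells and 6.36 in vector cells on its 1 probe set, below the floor on both arrays. Itgb4, the partner of alpha-6 in hemidesmosomes, read 6.75 and 6.76 on its 1 probe set, just above the floor. Its difference of -0.004 was smaller than the probe-set SD, and its sign turned under both other normalizations. That probe set was brighter than 55.8% of all probe sets, a range where RMA is known to shrink differences.

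Itga5, the alpha-5 chain of the main fibronectin receptor, was lower on both of its probe sets, unevenly. On 1423267_s_at it read 7.16 in shDAB2 cells and 7.56 in vector cells, a difference of -0.40 or 1.32-fold lower. On the dimmer 1423268_at it read 6.58 and 6.74, a difference of -0.16, with the shDAB2 value under the floor. The vector clone was higher both times. Of all probe sets above the floor 3.82% were as low as -0.40 and 19.0% as low as -0.16. Only 1423268_at remains for Itga5 when probe sets ending in _s_at, _x_at or _a_at are left out.

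Itgav, whose product binds vitronectin and fibronectin with several beta chains, was lower on the 1 probe set above the floor. That probe set, 1452784_at, read 7.29 in shDAB2 cells and 7.55 in vector cells, a difference of -0.26 or 1.20-fold lower, and 9.47% of all probe sets were as low. Its other probe sets lay below the floor and differed by -0.05 and -0.03. The vector clone was nominally higher on all 3, but the dim pair differed by less than the probe-set SD.

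Itgb5, the beta-5 chain that makes a vitronectin receptor with alpha-v, was the only member above the floor that was higher in the shDAB2 clone on every probe set, 4 of 4. Probe set 1456195_x_at read 7.31 in shDAB2 cells and 6.98 in vector cells, a difference of 0.33 or 1.26-fold higher. Probe set 1456133_x_at read 7.46 and 7.14, a difference of 0.32 or 1.24-fold higher. The remaining probe sets showed much less. Probe set 1417534_at read 7.59 and 7.50, a difference of 0.10, and 1417533_a_at read 7.89 and 7.86, a difference of 0.03. Both were smaller than the SD of 1 probe set. The IDs of the probe sets with the larger differences end in _x_at, Affymetrix's mark for probes that can also match other transcripts, and every other _x_at probe set of the members, 2 of Itgb1, read below the floor. Whether Itgb5 differs by the larger or the smaller amount was not settled by these probe sets.

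Itgb1, the beta-1 chain shared by alpha-3, alpha-5, alpha-6, alpha-7, alpha-9 and alpha-v, differed little. Probe set 1452545_a_at read 8.48 in shDAB2 cells and 8.61 in vector cells, a difference of -0.12. Probe set 1426918_at read 8.13 and 8.29, a difference of -0.16. The vector clone was higher on both, by a little more than 1 probe-set SD, and 18.8% of all probe sets above the floor were as low as -0.16. The other 4 of its 6 probe sets lay below the floor, between 5.87 and 6.22, with differences from -0.08 to 0.10. Each of the bright probe sets shares its annotated source sequence with at least 1 of the dim ones, so the annotation alone does not say which probe sets read the Itgb1 transcript.

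Itgb3 and Itga9 were too dim to compare. Itgb3, the beta-3 chain known from platelets, read 6.47 in shDAB2 cells and 6.30 in vector cells on its 1 probe set, below the floor on both arrays. Its difference of 0.17 was the largest among the 11 probe sets below the floor, where the others ran from -0.08 to 0.10. The 3 probe sets of Itga9 differed by -0.04, 0.04 and 0.05. The brightest of them read 6.58 in shDAB2 cells and 6.62 in vector cells, and lay under the floor by less than the rounding.

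**Figure D2:**
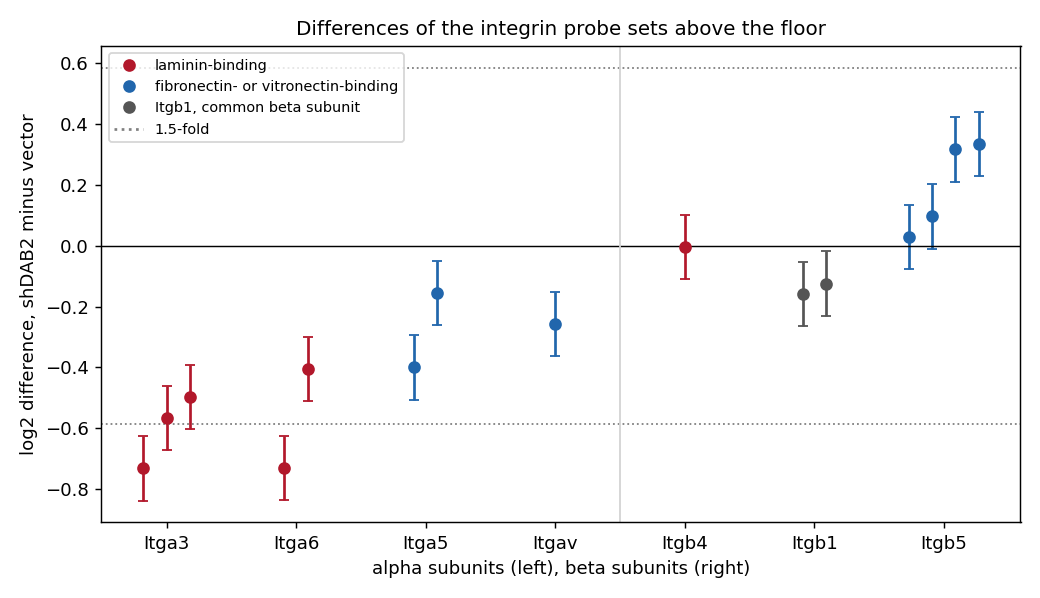
Log2 difference (shDAB2 minus vector) of each of the 15 integrin probe sets above the floor, alpha chains on the left and beta chains on the right, coloured by ligand class. Bars are ± 1 SD of a probe set's difference (0.11, from probe sets of 1 gene); the 8 alpha probe sets lie between -0.73 and -0.16, and the 7 beta probe sets between -0.16 and 0.33.

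Set side by side, the laminin-binding probe sets had a lower median than the fibronectin- and vitronectin-binding ones, through Itga3 and Itga6. The size of the gap depended on which chains were counted. Itgb4, at -0.004, lay above every probe set of Itga5 and Itgav. The 6 laminin-class probe sets above the floor (Itga3, Itga6, Itgb4) ran from -0.73 to -0.004 with a median of -0.53. The 7 probe sets of the other class (Itga5, Itgav, Itgb5) ran from -0.40 to 0.33 with a median of 0.03. The class medians thus differed by -0.56, and the laminin probe set was the lower one in 39 of 42 pairings across classes. These pairings reuse probe sets of the same few genes and are not independent. The ranges overlapped through Itgb4. Itgb5 supplied 4 of the 7 probe sets of its class: without it that median was -0.26 and the gap between classes -0.27. Counting 1 brightest probe set per gene, the medians were -0.40 and -0.26, a gap of -0.15, about the size of the usual gap between a pair of probe sets of 1 gene. In both classes 3 of 4 genes were above the floor.

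Among alpha chains alone the ligand classes did not overlap, but only just. The 5 laminin-binding probe sets ran from -0.73 to -0.40 and the 3 others from -0.40 to -0.16, and the laminin one was lower in 15 of 15 pairings. Each side holds only 2 genes, and probe sets of 1 gene are not independent, so the pairings are not repeats. Among the 3 others, 1423268_at of Itga5 passed the floor only through the vector clone. The medians were -0.57 and -0.26. The nearest values of the classes, Itga6 on 1422445_at and Itga5 on 1423267_s_at, were 0.004 apart, far less than 1 probe-set SD. Chain type separated the members above the floor with less overlap than ligand class did. The alpha and beta ranges overlapped by 0.003, and those of the ligand classes, which leave out Itgb1, by 0.40. The 8 alpha probe sets were all lower, with a median of -0.45, while the 7 beta probe sets had 3 lower, 4 higher and a median of 0.03. The alpha probe set was the lower one in 55 of 56 pairings, which again are not independent. The grouping by chain type was made after the values were seen. Which of the groupings, ligand or chain, goes with the differences cannot be told apart with 4 alpha and 3 beta genes above the floor.

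**Figure D3:**
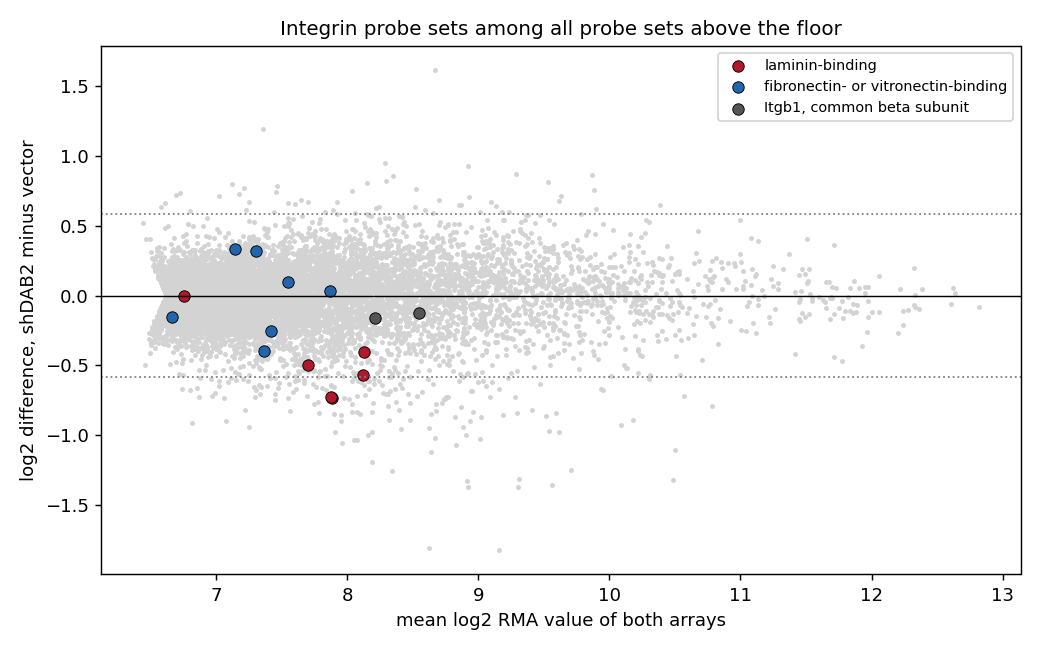
Log2 difference against mean log2 value for the 10932 probe sets above the floor (grey), with the integrin probe sets coloured by class and dotted lines at 1.5-fold. The points of Itga3 and Itga6 lie in the lower part of the cloud, from -0.73 to -0.40, where 0.686% to 3.70% of all probe sets are as low; the lowest point of each gene falls at nearly the same place.

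Dab2 itself, the gene the hairpin targets, read 6.33 in shDAB2 cells and 6.64 in vector cells on its brightest probe set, a difference of -0.31. Its other probe sets lay below the floor and differed by -0.05 and -0.01. The brightest probe set reached the floor only in the vector clone, so these values are a weak check of the label. Across all 22626 probe sets the correlation between the arrays was 0.99. Of 8 stem cell markers 4 were lower and 4 higher, with a median of 0.02. Pou5f1 differed by 0.10, Sox2 by -0.17 and Nanog by -0.02, and the ends of the range were Esrrb at -0.24 (-0.21 on its second probe set) and Utf1 at 0.21.

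Itga3 and Itga6 are also expressed in epithelia, so markers of other cell types are given beside them. In a culture measured in bulk, fewer cells of a type and less RNA per cell cannot be told apart. Of 10 trophectoderm markers 6 were above the floor and all 6 were lower, 4 of them at least 1.5-fold (background over genes 1.62%). These 4 were all keratin genes, led by Krt18 at -1.32 and Krt19 at -0.90, whose probes can also match processed pseudogenes. The mean log2 value of the 10 was 7.50 in shDAB2 cells, with members from 6.32 to 10.21, and 7.91 in vector cells, with members from 6.25 to 11.14. The regulators Cdx2, Eomes, Elf5 and Gata3 were below the floor on both arrays. The regulators above it were Tfap2c at -0.47 (-0.22 on its second probe set) and Hand1 at only -0.02 (-0.11 on its second). Of 12 primitive endoderm markers 5 were above the floor, 3 of them lower, with a median of -0.29. Without Ttr, which reached the floor only in the shDAB2 clone, 3 of 4 were lower, with a median of -0.33. The lower ones were Sparc at -0.40 (-0.31 on its second probe set), Col4a2 at -0.36 and Col4a1 at -0.29 (-0.38 on its second). Hnf4a was higher at 0.09 (-0.01 on its second). The mean of the 12 was 6.73 in shDAB2 cells (6.07 to 9.18) and 6.80 in vector cells (5.99 to 9.58), with Gata4, Gata6 and Sox17 below the floor. Of 9 fibroblast markers 3 were above the floor and differed by -0.13 to 0.07, with means of 6.72 (5.998 to 8.36) and 6.74 (6.06 to 8.49) and Col1a1 below the floor. Dcn, at the upper end of that range, reached the floor only in the shDAB2 clone. Of 6 measured blood and endothelial markers 1 was above the floor, Pecam1 at -0.25, with means of 6.40 (6.06 to 6.69) and 6.37 (5.94 to 6.94). The part of the cells behind these markers in the integrin differences was not tested.

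The remaining integrin subunits of the array were dim. Of 17 further subunits 12 were measured and 3 were above the floor: Itgae (0.16), Itgb7 (0.09) and Itga2b (0.05), which encode chains of lymphocyte and platelet integrins. All 3 were nominally higher in the shDAB2 clone, 0 by 1.5-fold, but Itgae reached the floor only in that clone. The 9 below the floor differed by -0.18 to 0.10. For this list and those that follow, a gene is represented by its brightest probe set. Over the 7269 genes above the floor the median was 0.001 and 49.3% were lower, and 1.5-fold was reached by 1.62% on the lower side and 0.578% on the higher.

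By list median, the fibronectin, vitronectin and other ligand genes were lower by more than the laminin chains. Of the laminin chains 5 of 10 measured were above the floor, 3 lower and 2 higher, with a median of -0.13 and 0 past 1.5-fold. One of the higher ones, Lama2, named after its value was seen, reached the floor only in the shDAB2 clone; without it the median was -0.15. Lama5, the alpha-5 laminin chain of embryonic basement membranes, read 7.83 in shDAB2 cells and 8.17 in vector cells, a difference of -0.34 (-0.20 on its second probe set). Lamb1 differed by -0.17 and Lamc1 by -0.13, the beta and gamma chains of the commonest laminins, while Lama1 was 0.13 higher. In the list of fibronectin, vitronectin and other ligands 6 of 15 were above the floor, 5 lower and 1 higher, with a median of -0.46 and 1 past 1.5-fold. The higher one was Ccn2 at 0.19, and the vitronectin gene Vtn was below the floor on both arrays. Both were named after their values were seen. The lower ones include Tgfb1, named after its value was seen, which reached the floor only in the vector clone; without it 4 of 5 were lower, with a median of -0.53. Fibronectin (Fn1), the ligand of alpha-5, read 8.93 and 9.53, a difference of -0.59 or 1.51-fold lower. Ccn1, a matrix protein that binds alpha-v integrins, differed by -0.54 (-0.55 on its second probe set). Mfge8, whose RGD sequence binds alpha-v integrins, differed by -0.53, and thrombospondin-1 (Thbs1) by -0.40 (-0.36 on its second). So the receptor genes with the larger difference were Itga3 and Itga6, whose products bind laminin. The ligand list with the larger difference was the one without laminin chains. That list was not sorted by every receptor its members bind, so the ligand lists need not match the receptor classes. With 1 array per group neither contrast was tested.

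Proteins that bind integrin tails or switch integrins on were also mostly lower. Of 16 measured genes 13 were above the floor, 11 lower and 2 higher, with a median of -0.18 and 1 past 1.5-fold. The 11 include Dab2, the hairpin's own target, which reached the floor only in the vector clone; without it 10 of 12 were lower, with a median of -0.13. Slc3a2, the heavy chain of CD98, which binds beta-1 tails and also carries amino acid transporters, read 8.59 in shDAB2 cells and 9.46 in vector cells, a difference of -0.87 or 1.83-fold lower. Talin (Tln1), which links beta tails to actin and activates integrins, read 7.51 and 8.06, a difference of -0.55. Kindlin-2 (Fermt2), its co-activator, differed by -0.41 (-0.34 on its second probe set). The small GTPase gene Rap1a differed by -0.34, but by only -0.06 on its second probe set.

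Genes of the focal adhesion, the actin-linked plaque at the integrin tail, were lower in 18 of 25 cases above the floor and higher in 7. Their median was -0.20, and 2 were at least 1.5-fold lower. Among the 23 that reached the floor on both arrays 17 were lower and 6 higher, with a median of -0.28. Filamin A (Flna), an actin crosslinker that binds beta tails, read 8.60 in shDAB2 cells and 9.28 in vector cells, a difference of -0.68 or 1.60-fold lower. Vinculin (Vcl), which joins talin to actin, read 8.55 and 9.16, a difference of -0.61 (-0.46 on its second probe set). Parvin alpha (Parva) differed by -0.53 and -0.40 on its probe sets, and alpha-actinin-1 (Actn1) by -0.53 and -0.23 on its brightest pair. Each of these was lower in the shDAB2 clone on every probe set above the floor.

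Of 9 measured genes for hemidesmosomes and tetraspanins, partners of the laminin-binding integrins, 6 were above the floor. Of these 6, 5 were lower, with a median of -0.38 and 1 past 1.5-fold. The 3 below the floor on both arrays were Col17a1, Krt5 and Krt14, named after their values were seen. Dystonin (Dst), a plakin that anchors beta-4 to keratins, read 7.37 in shDAB2 cells and 8.21 in vector cells, a difference of -0.84. Of its 2 other probe sets above the floor, the brighter differed by -0.51 and the dimmer had the opposite sign. Plectin (Plec), the other plakin of hemidesmosomes, differed by -0.54 on both of its probe sets. The tetraspanin gene Cd9 differed by -0.49 and Cd81 by -0.26. Cd151, the tetraspanin that binds alpha-3 and alpha-6 directly, is named after its value was seen; it differed by -0.19 and was lower on all 4 of its other probe sets above the floor. The beta-4 gene itself, at -0.004, did not share these differences.

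The machinery that takes up and recycles integrins was mixed. All 14 measured genes were above the floor, 9 lower and 5 higher, with a median of -0.10 and 0 past 1.5-fold either way. The recycling GTPase gene Rab11a differed by -0.36, but by 0.02 on its second probe set. Hax1 stood at -0.26, Cltc, the clathrin heavy chain gene, at -0.25 and the AP-2 adaptor gene Ap2a2 at -0.24 (-0.25 on its second probe set). The direction of Rab11a is thus uncertain, and the other named differences were at most 1.20-fold.

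**Figure D4:**
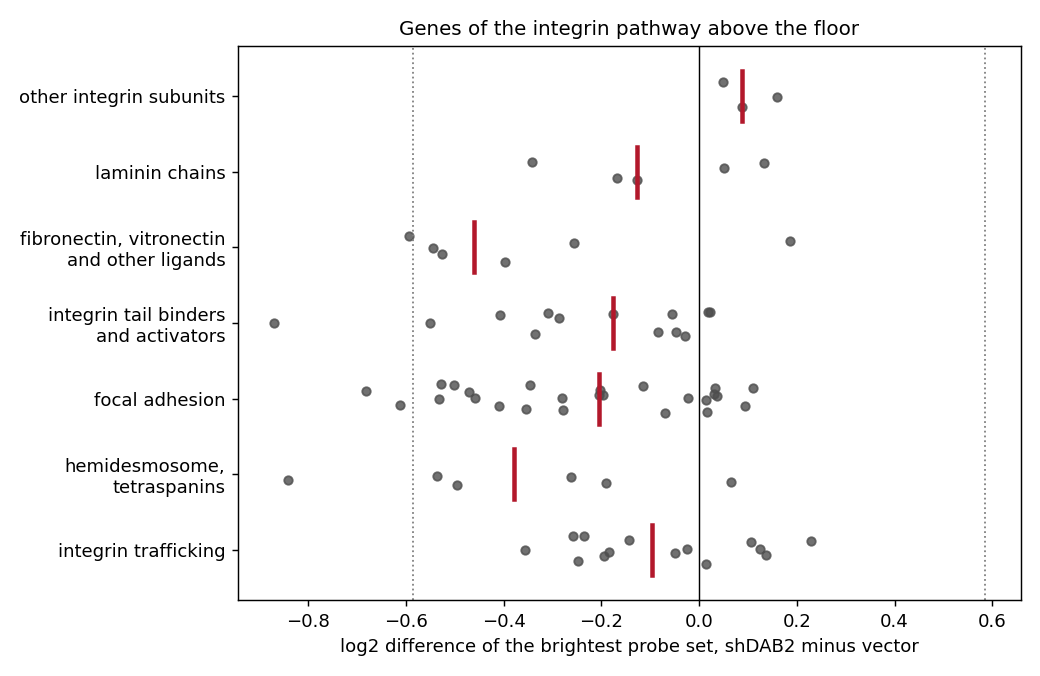
Log2 difference of the brightest probe set of each pathway gene above the floor (points, 3 to 25 genes per list), with the median of each list as a red line and 1.5-fold as dotted lines. Medians run from -0.46 for the fibronectin, vitronectin and other ligands to 0.09 for the other integrin subunits, and no gene reaches 1.5-fold higher.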

How the data were processed

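The deposited values are log2 expression values per probe set, made by the authors with RMA, per the submitters' processing notes; its version, its probe set definitions and whether other arrays were normalized in the same run were not stated. No log base is named; RMA's usual base of 2 was assumed, since natural logs of this size would lie beyond a scanner's range. The array is the Affymetrix mouse 430A, per the labels' design text. Groups came from the sample titles.

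Of 22626 probe sets, 20380 had 1 gene in the platform annotation, 691 several and 1555 none; only the first were used. The gene IDs of all 10 members matched RefSeq's mouse table. Differences, counts, medians and motif matches were computed in Python 3.11.15 with pandas 2.3.3, and cyclic loess with limma 3.58.1. The code was tested on simulated data. The table holds 0 control probe sets (AFFX), so no RNA quality check was made. Precision is limited by the number of arrays.

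The members and gene lists were chosen with earlier results of these data known. Named are all members, the 4 most different genes at most of every pathway list (by absolute difference), and Dab2, Pou5f1, Sox2 and Nanog; others, including all markers of cell types, were named after their values were seen. With 2 arrays no likeness of pattern between genes can be measured, so no similar genes are named.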

Additional observations from a re-analysis of the deposited data

How the results depend on the processing

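No paired analysis was possible because each group holds 1 sample and no test was made. The runs with cyclic loess, median centring, no floor and a floor at the 75th percentile of all values left the counts past 1.5-fold within 1.5 times. They left every class median within the probe-set SD of 0.11. Cyclic loess counted 3 probe sets as 1.5-fold lower in place of 2, as 1421997_s_at of Itga3 moved from -0.57 to -0.59. The 15 single probe sets gave 30 values under cyclic loess and median centring, all within that SD of the reported ones. Without probe sets ending in _s_at, _x_at or _a_at the fibronectin and vitronectin median was -0.16. With the brightest probe set per gene 0 were 1.5-fold lower, and the laminin median, the other median and their gap were -0.40, -0.26 and -0.15. With each gene's probe sets averaged 1 was 1.5-fold lower, the fibronectin and vitronectin median was -0.11 and the gap -0.45. By construction the smaller limit (a log2 difference of 0.32) gave 6 lower and 1 higher and a 2-fold limit 0 lower. With alpha chains only the fibronectin and vitronectin median was -0.26 and the gap -0.31; with Itgb1 in both classes they were -0.12 and -0.33. Chosen after seeing the data, leaving out Itgb5 gave -0.26 and -0.27, and leaving out Itga3 a laminin median of -0.40 and a gap of -0.43. With no floor 17 probe sets were lower and 9 higher, against 11 and 4 above it, because 11 more are counted. The list values without genes that reached the floor on 1 array only were likewise chosen after seeing the data. The gap kept its sign under every alternative run, but was as small as -0.15. All runs reuse the same 2 arrays and much the same probe sets, so the constant sign is not a repeat of the result. Dim signal limits what Itga7, Itgb3, Itgb4, Itga9 and Dab2 can show.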
